A study of Homo sapiens with 90 samples.

Results

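The 36 genes described here encode extracellular matrix proteins and the enzymes that cross-link, cleave or protect them. They were taken by gene symbol from a fixed list and are 36 of the 28307 genes in the count table. By role, the list holds fibrillar collagens, basement membrane proteins, other collagens, glycoproteins, small leucine-rich proteoglycans, cross-linking enzymes, matrix metalloproteinases and their tissue inhibitors. Every symbol was found in the table. In 27 of the 36 the counts were high enough for a test, and the other 9 had between 18 and 305 counts over all libraries used, with at most 12 in any library.

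The extracellular matrix is the protein network between cells. Fibrillar collagens give it tensile strength, laminins and type IV collagen form the thin basement membrane under epithelia, and glycoproteins and proteoglycans link these fibres to each other and to cell surface receptors. Matrix metalloproteinases cut matrix proteins, and the TIMP proteins block those enzymes. In the liver the space beside hepatocytes normally holds little fibrillar collagen, much of which is made by stellate cells in fibrosis, whereas bile duct cells rest on a laminin-rich basement membrane. Matrix produced by cultured liver cells is also part of what holds them in a differentiated or a dividing state.

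HepaRG, an established line of human liver progenitors, can mature in the dish toward both hepatocytes and bile duct cells. Parental cells were compared with cells of the same line stably transduced by a lentivirus carrying CYP2D6, a drug-metabolising cytochrome P450, and the series asks how the transduced cells serve for drug metabolism and toxicity work. Expression was measured by BRB-seq, which barcodes samples early and counts transcript 3′ ends, in 15 conditions with 3 replicates for each of the 2 genotypes, 90 libraries in all. Progenitors, of both genotypes and without DMSO, were taken at days 0, 2, 4, 7 and 14. Freshly differentiated cells and thawed cells, again of both genotypes, were taken in 5 conditions. Those labelled without DMSO are day 30 and day 32, and those labelled with it are days 32, 37 and 44. DMSO is a solvent used to bring on and hold differentiation in HepaRG. According to the protocols, cells reached day 30 after 2 weeks of growth and 2 weeks with DMSO, so the day 30 groups had met DMSO although their label reads without it. The promoter of the transgene, whether the transduced line is 1 clone or a pool, and whether replicates were separate cultures are not given in the sources used here, so the p-values below measure the spread between these samples, which may be technical.

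Of the 90 libraries, 3 parental ones were nearly empty, with 212 to 10137 counts (replicate c of progenitor day 2, progenitor day 14 and fresh day 30), and were left out, which leaves 5 libraries in those conditions and 6 in the others. The 87 libraries used held 723391 to 3882866 counts, with a median of 1935150. Levels are given as CPM, counts scaled by the library's total after TMM adjustment (edgeR's correction for library composition). CYP2D6 itself had group means of 4.54 to 17.6 CPM in the 15 transduced groups and of 0 to 2.47 CPM in the 15 parental groups. The summed level of 8 hepatocyte markers fell from a median of 15866 CPM at progenitor day 0 (range 9935 to 22536) to 3144 CPM at day 2 (2773 to 3217) and stood at 43142 CPM at day 14 and 62969 CPM at fresh day 30. That of 8 stellate and fibroblast markers, of which ACTA2 and TAGLN had the highest levels, had medians between 40.6 and 138 CPM, with the highest at progenitor day 2. The sum of 6 biliary markers had medians of 213 to 449 CPM, with the highest at progenitor day 2. The sum of 6 endothelial markers ran from 2.84 to 39.7 CPM over the libraries and was lowest at progenitor day 2 (median 4.25 CPM). KDR, the one that could be tested, had condition medians of 3.53 to 28.2 CPM, whereas VWF and CDH5 reached at most 1.15 and 0.73 CPM in any library. The sum of 6 leukocyte markers, of which CD68 and CD14 could be tested, ran from 14.02 to 104 CPM, with medians of 16.96 CPM at progenitor day 2, 81.9 CPM at day 14 and 55.6 to 83.7 CPM from day 30 on, and PTPRC, the general leukocyte marker, reached at most 1.98 CPM. In bulk RNA, fewer cells of a type and less RNA per cell cannot be told apart.

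Promoter sequence is shown for POSTN, MMP7, LAMA3, THBS1 and the pair COL4A1 and COL4A2, to give the DNA just before genes whose changes are described. TIMP1 and FN1, which had more counts, are not shown. RefSeq sequence of the build GRCh38.p14 was found for 26 of the 36 members, and the 250 bases before each start were searched on both strands for TGANTCA (the binding element of AP-1), GGAATG (the core element of TEAD factors), TATAAA (the TATA box) and GGGCGG (the GC box bound by SP1). The first of these was found before 3 members, POSTN, MMP7 and LAMA3, against 6.57% of 35116 windows of the same length. All 3 are printed, so this element is more frequent in the lines below than among the 26 members searched. Capitals in the lines below mark, on either strand, TGANTCA and TATAAA in POSTN and MMP7 and TGANTCA alone in LAMA3. They mark GGAATG in THBS1 and GGGCGG in the stretch shared by COL4A1 and COL4A2.
POSTN promoter: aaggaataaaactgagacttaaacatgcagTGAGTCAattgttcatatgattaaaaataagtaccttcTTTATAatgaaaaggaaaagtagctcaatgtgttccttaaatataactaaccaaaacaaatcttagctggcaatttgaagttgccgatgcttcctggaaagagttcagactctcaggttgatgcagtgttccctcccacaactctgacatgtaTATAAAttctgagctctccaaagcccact
MMP7 promoter: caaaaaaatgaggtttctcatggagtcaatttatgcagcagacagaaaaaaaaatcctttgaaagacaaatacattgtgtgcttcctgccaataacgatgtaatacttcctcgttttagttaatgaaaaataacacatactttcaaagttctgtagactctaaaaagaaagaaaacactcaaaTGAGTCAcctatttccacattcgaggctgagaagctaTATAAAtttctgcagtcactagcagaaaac
LAMA3 promoter: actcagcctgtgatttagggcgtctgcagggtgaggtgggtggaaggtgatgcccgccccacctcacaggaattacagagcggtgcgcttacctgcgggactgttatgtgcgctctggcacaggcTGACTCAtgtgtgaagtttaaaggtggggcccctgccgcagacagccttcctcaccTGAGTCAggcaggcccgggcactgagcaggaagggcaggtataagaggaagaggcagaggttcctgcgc
THBS1 promoter: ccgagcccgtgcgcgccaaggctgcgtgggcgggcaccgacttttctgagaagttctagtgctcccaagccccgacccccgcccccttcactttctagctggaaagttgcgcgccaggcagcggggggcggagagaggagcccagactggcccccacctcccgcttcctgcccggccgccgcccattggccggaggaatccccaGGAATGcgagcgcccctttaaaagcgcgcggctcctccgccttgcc
COL4A1 and COL4A2 shared promoter: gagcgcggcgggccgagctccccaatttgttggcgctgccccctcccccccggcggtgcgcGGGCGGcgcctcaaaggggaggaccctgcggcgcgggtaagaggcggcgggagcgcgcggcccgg
The POSTN window is chr13:37598769-37599018 on the minus strand, the MMP7 window chr11:102530748-102530997 on the minus strand and the THBS1 window chr15:39580829-39581078 on the plus strand, each ending 1 base before its gene. The LAMA3 window, chr18:23872770-23873019 on the plus strand, lies before a start inside the gene, which RefSeq places from base 23689453 to base 23955066. COL4A1 and COL4A2 are read away from each other on chromosome 13, and the 126 bases printed, chr13:110307158-110307283 on the plus strand, are all that separates them. TATAAA was found before 4 members (COL6A2, COL7A1, POSTN and MMP7) against 10.7% of windows, GGAATG before 4 (COL12A1, SPARC, FBN1 and THBS1) against 11.9%, and GGGCGG before 21 against 42.6%. The letters are a description of these windows, and binding of a factor was not measured.

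The genes were compared between conditions with edgeR's quasi-likelihood test, fitted to all 12532 genes with enough counts, and a gene was called at an adjusted p under 0.05 (Benjamini-Hochberg, over all genes tested). Of the 27 members tested, 25 were called in at least 1 of the 14 comparisons, and 19 of them rose in some and fell in others. Calls were most frequent along the progenitor course. From day 0 to day 2, 4 members rose and 11 fell, where 13.8% of all genes tested rose and 16.6% fell (30.4% in either direction). From day 2 to day 14, 10 rose and 7 fell (19.5% and 16.7% of all genes, 36.2% in either direction), and from progenitor day 14 to fresh day 30, 8 rose and 6 fell (10.7% and 11.9%, 22.6% in either direction). The members' median log2 change was -0.75 from day 0 to day 2, -0.01 from day 2 to day 14 and 0.38 into fresh day 30, beside -0.08, 0.09 and 0.02 for all genes tested.

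After day 30 fewer members were called. Between day 30 and day 32 without DMSO, 3 rose and 6 fell in fresh cells (9.53% and 7.81% of all genes, 17.3% in either direction) and 2 rose and 3 fell in thawed cells (5.98% and 5.86%, 11.8%). Between day 32 and day 44 with DMSO, 1 rose and 5 fell in fresh cells (6.52% and 4.96%, 11.5%) and 5 rose and 2 fell in thawed cells (5.67% and 3.91%, 9.58%). DMSO at day 32 was followed by no call among the members in fresh cells by edgeR, where 2.45% of all genes were called (0.479% rose and 1.97% fell). There 3 members had an unadjusted p under 0.05, and DESeq2 called 1. The share of all genes at that unadjusted threshold was not computed. In thawed cells 1 member rose and 3 fell with DMSO (2.42% and 5.35% of all genes, 7.76%). Thawed cells at day 30 stood apart from fresh cells at day 30 in direction, with 10 members lower and none higher, where 6.02% of all genes were lower and 9.54% higher (15.6% in either direction).

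**Figure D1:**
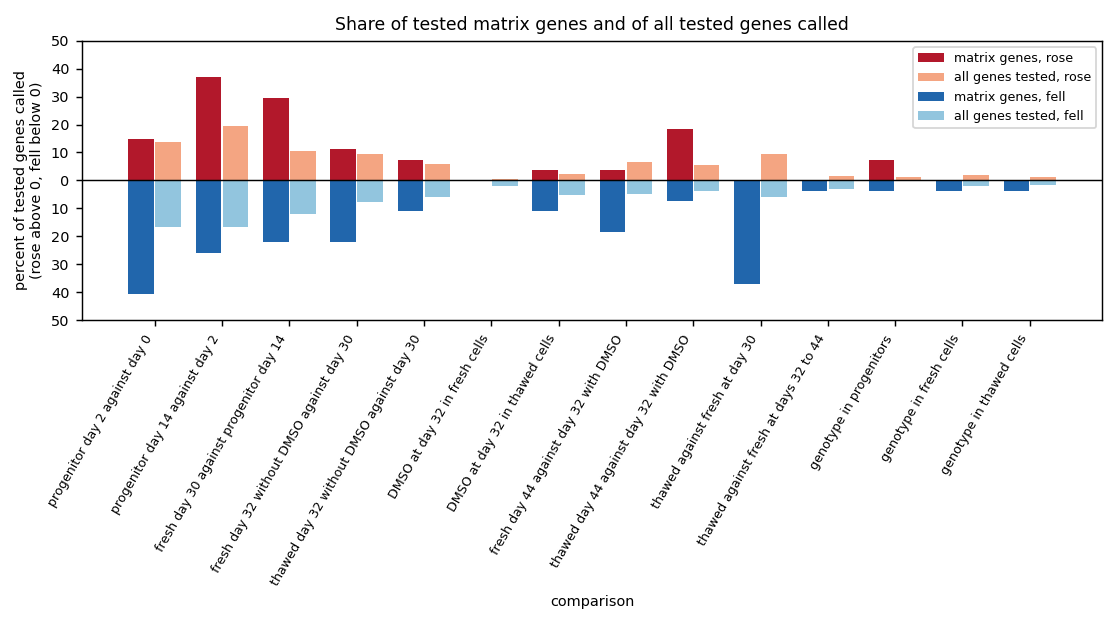
Bars give the percent of the 27 tested matrix genes and of all 12532 tested genes that rose (above 0) or fell (below 0) at an adjusted p under 0.05 in each of the 14 comparisons. In 11 of 27 members a fall was called from progenitor day 0 to day 2, against 16.6% of all genes, and in 10 of 27 from fresh to thawed cells at day 30, against 6.02%.

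**Figure D2:**
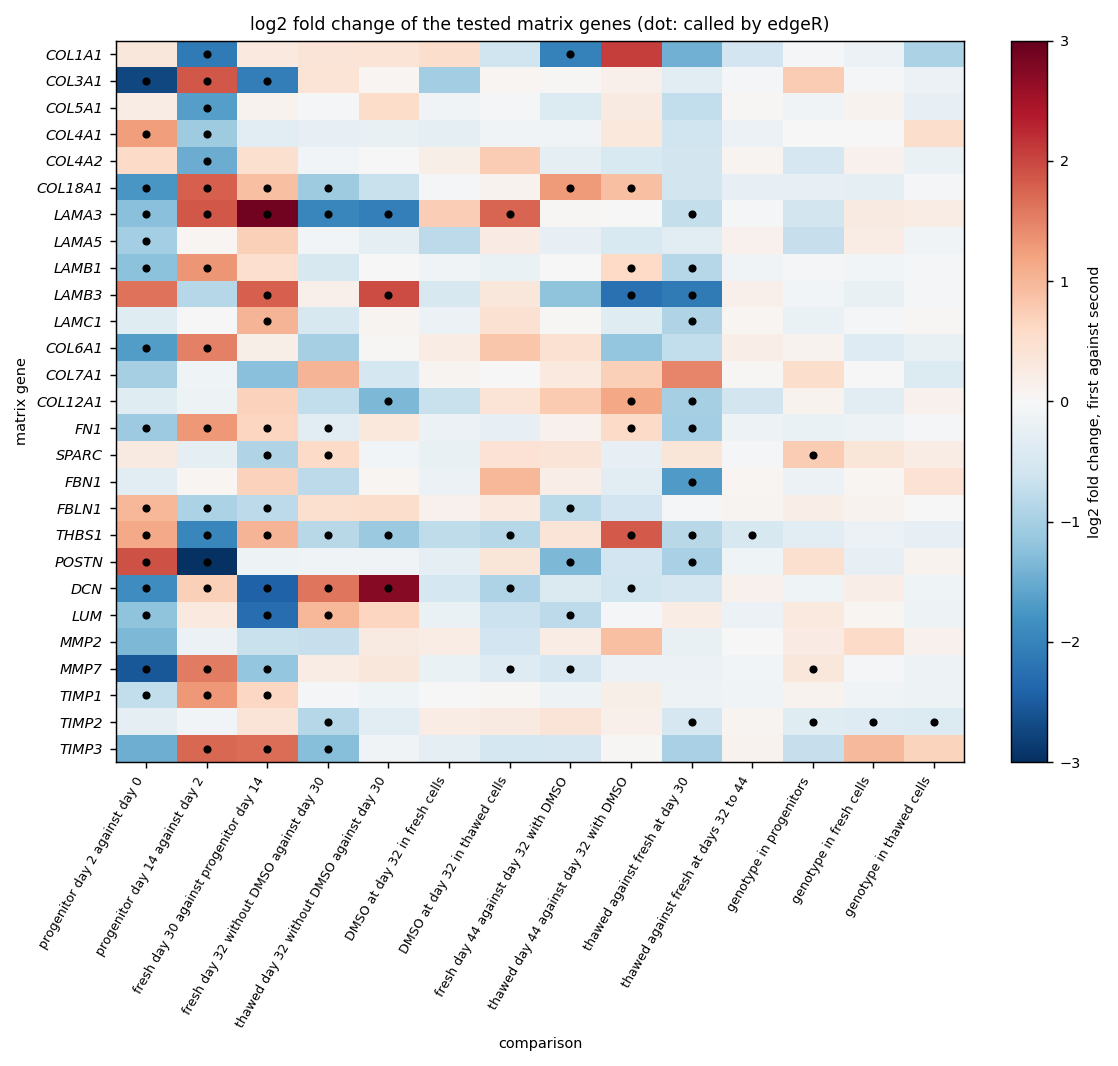
Fitted log2 fold change of each of the 27 tested matrix genes (rows, grouped by role) in the 14 comparisons (columns), on a colour scale, with a dot where edgeR's adjusted p is under 0.05. POSTN and THBS1 are higher at progenitor day 2 than at day 0 and lower again at day 14, and LAMA3 shows its highest value in fresh day 30 against progenitor day 14 (log2 2.88).

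Among the glycoproteins, POSTN (periostin), a secreted protein of remodelling tissue, gave the sharpest pulse in the progenitors. Its level ran from 8.59 to 29.4 CPM at day 0 (median 16.3, 6 libraries), from 62.2 to 81.3 CPM at day 2 (median 73.1, 5 libraries) and from 33.7 to 64.8 CPM at day 4 (median 44.8). It was 6.10 to 23.7 CPM at day 7 and 5.16 to 17.7 CPM at day 14. All day 2 libraries lay above all those of day 0 and of day 14. By edgeR, POSTN rose from day 0 to day 2 by 1.92 on the log2 scale (SE 0.24, 3.79-fold, adjusted p = 2.74e-11) and fell by 2.96 from day 2 to day 14 (SE 0.27, adjusted p = 1.09e-17). In differentiated cells it reached at most 14.04 CPM in any library, and it fell from day 32 to day 44 with DMSO in fresh cells, from a mean of 6.39 to 2.49 CPM (log2 -1.35, SE 0.40, adjusted p = 0.0143).

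THBS1 (thrombospondin 1), which can activate latent TGF-beta, was also highest at day 2 and rose again at day 30. It ran from 67.6 to 177 CPM at day 0 (median 128), from 231 to 352 CPM at day 2 (median 300.5) and from 56.0 to 88.0 CPM at day 14 (median 66.2). At fresh day 30 it ran from 106 to 200 CPM (median 135). The day 2 libraries did not overlap with those of day 0 or day 14, and the day 30 libraries did not overlap with day 14. THBS1 rose to day 2 (log2 1.14, SE 0.25, adjusted p = 0.000182, edgeR), fell to day 14 (log2 -1.97, SE 0.27, adjusted p = 1.4e-08) and rose into fresh day 30 (log2 1.03, SE 0.27, adjusted p = 0.00297). By day 32 without DMSO it had fallen in fresh cells (log2 -0.83, SE 0.25, adjusted p = 0.0144) and in thawed cells (log2 -1.12, SE 0.26, adjusted p = 0.00112). In thawed cells with DMSO it stood at 10.6 to 26.9 CPM at day 32 and at 43.7 to 110 CPM at day 44, with no overlap, and rose between them by 1.85 (SE 0.27, adjusted p = 3.08e-07).

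**Figure D3:**
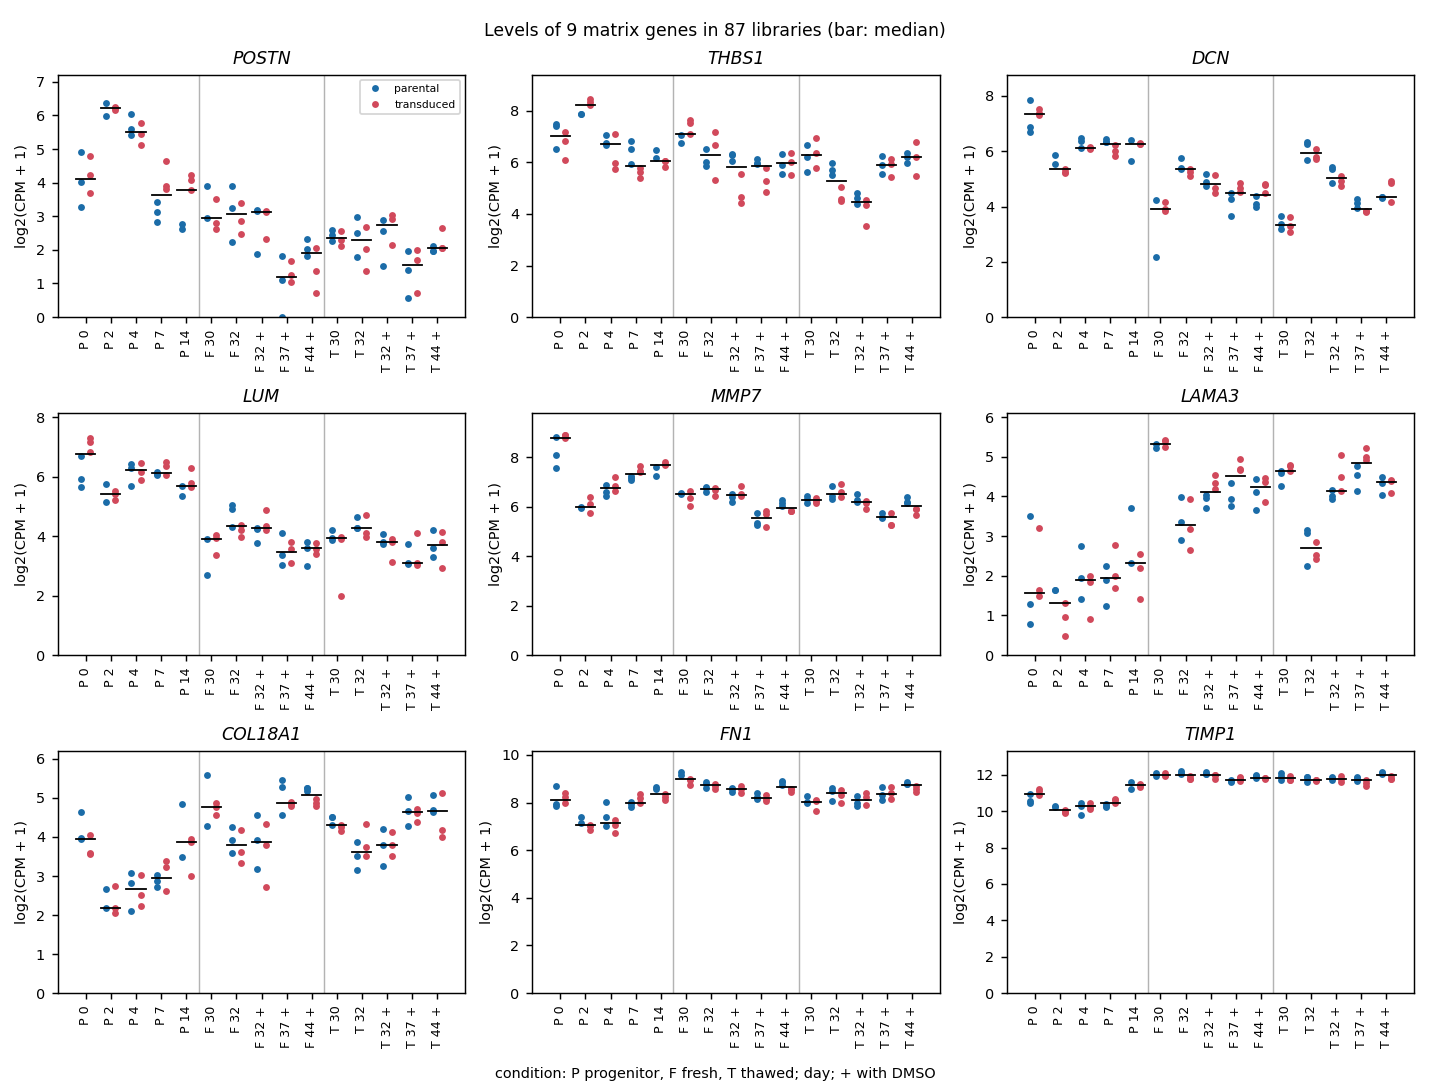
Level of 9 matrix genes, as log2(CPM + 1), in each of the 87 libraries used (points, coloured by genotype) over the 15 conditions (P progenitor, F fresh, T thawed, with the day, and + for DMSO), with a bar at the condition median. POSTN and THBS1 peak at progenitor day 2 (medians 73.1 and 300.5 CPM), where MMP7, DCN, LUM, FN1 and TIMP1 are lower than at day 0, and LAMA3 is highest at fresh day 30 (median 39.2 CPM).

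FN1 (fibronectin), the glycoprotein that integrins grip to assemble matrix, ran the other way. It was 229 to 412 CPM at progenitor day 0 (median 276), 115 to 169 CPM at day 2 (median 131), 274 to 399 CPM at day 14 (median 331) and 432 to 631 CPM at fresh day 30 (median 506). None of these neighbouring sets overlapped. FN1 fell to day 2 (log2 -1.09, SE 0.13, adjusted p = 9.73e-12, edgeR), rose to day 14 (log2 1.30, SE 0.13, adjusted p = 1.65e-14) and rose again into fresh day 30 (log2 0.64, SE 0.13, adjusted p = 5.47e-05). FBLN1 (fibulin 1), which binds fibronectin and elastic fibres, was higher at day 2 than before and after, as POSTN was. It was 9.45 to 24.7 CPM at day 0, 24.5 to 36.9 CPM at day 2 and 11.2 to 19.3 CPM at day 14. It rose by 0.99 (SE 0.23, adjusted p = 0.000324) and then fell by 0.95 (SE 0.24, adjusted p = 0.000612). SPARC, a collagen-binding protein of remodelling tissue, was called in neither of these steps and fell into fresh day 30, from a mean of 27.1 to 13.5 CPM (log2 -0.91, SE 0.21, adjusted p = 0.000531). FBN1 (fibrillin 1), a microfibril protein, had condition medians of 1.44 to 6.06 CPM and was called once, in thawed against fresh cells at day 30. TNC (tenascin C) could not be tested, with 231 counts in all, and its highest condition median was 4.26 CPM, at progenitor day 2.

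Both tested proteoglycans, DCN (decorin) and LUM (lumican), which bind collagen fibrils and set their spacing, were lower at fresh day 30 than in progenitors of day 14. Their genes lie 28989 bases apart on chromosome 12. DCN ran from 103 to 229 CPM at progenitor day 0 (median 162), from 35.99 to 58.0 CPM at day 2 (median 39.8), from 49.4 to 84.5 CPM at day 14 (median 76.7) and from 3.51 to 17.7 CPM at fresh day 30 (median 14.1). LUM ran from 49.0 to 155 CPM, from 34.6 to 52.6 CPM, from 40.1 to 77.0 CPM and from 5.51 to 15.4 CPM at the same points. For both, all fresh day 30 libraries lay below all progenitor libraries of day 14. DCN fell to day 2 (log2 -1.86, SE 0.17, adjusted p = 6.11e-18, edgeR), rose to day 14 (log2 0.70, SE 0.17, adjusted p = 0.000387) and fell into fresh day 30 (log2 -2.42, SE 0.20, adjusted p = 3.08e-19). LUM fell to day 2 (log2 -1.21, SE 0.21, adjusted p = 1.09e-06) and into fresh day 30 (log2 -2.28, SE 0.26, adjusted p = 7.09e-12). BGN (biglycan), of the same family, had 35 counts over all libraries and was not tested.

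DCN came back within the first 2 days after day 30. In fresh cells it was 3.51 to 17.7 CPM at day 30 and 33.1 to 52.6 CPM at day 32 without DMSO (log2 1.60, SE 0.19, 3.02-fold, adjusted p = 9.52e-11, edgeR). In thawed cells it was 7.41 to 11.6 CPM at day 30 and 50.4 to 80.3 CPM at day 32 (log2 2.73, SE 0.18, 6.64-fold, adjusted p = 9.87e-25). Neither pair of sets overlapped. The rise was 1.14 larger in thawed cells on the log2 scale (SE 0.27, adjusted p = 0.0122), a comparison of effects in which 2 members and 1.81% of all genes were called. The fresh day 30 value rests in part on parental replicate a, a library of 809061 counts that held 3 DCN counts (3.51 CPM, beside 13.3 to 17.7 CPM in the other 4). Without that library the difference was 1.37 (adjusted p = 0.0023). With replicate b removed throughout, where that library alone stands for the parental cells, the difference was 0.07. With replicate c removed throughout it was 1.01 (adjusted p = 0.111). With DMSO at day 32, DCN was lower in thawed cells than without it, at 25.7 to 42.6 CPM (log2 -0.93, SE 0.16, adjusted p = 4.61e-06), and in fresh cells it was 21.5 to 34.9 CPM with and 33.1 to 52.6 CPM without DMSO (log2 -0.53, SE 0.17, adjusted p = 0.0707). LUM rose from fresh day 30 to day 32 as well (log2 0.99, SE 0.26, adjusted p = 0.00379).

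Of the 8 basement membrane genes, 1 rose and 4 fell from progenitor day 0 to day 2 (13.8% and 16.6% of all genes). From day 2 to day 14, 3 rose and 2 fell (19.5% and 16.7%), and into fresh day 30, 4 rose and none fell (10.7% and 11.9%). LAMA3, the alpha chain of the laminin that anchors epithelia, ran from 1.65 to 12.2 CPM at progenitor day 14 (median 3.97), from 36.3 to 41.6 CPM at fresh day 30 (median 39.2) and from 18.2 to 26.5 CPM at thawed day 30 (median 23.8). At day 32 without DMSO it was 5.29 to 14.9 CPM in fresh and 3.72 to 7.83 CPM in thawed cells, and with DMSO 12.1 to 22.3 CPM and 14.4 to 31.9 CPM. Day 30 and day 32 without DMSO did not overlap in either kind of cell, nor did thawed cells with and without DMSO. LAMA3 rose into fresh day 30 by 2.88 on the log2 scale (SE 0.29, 7.38-fold, adjusted p = 1.42e-14, edgeR) and fell to day 32 without DMSO by 1.96 in fresh (SE 0.25, adjusted p = 7.97e-10) and by 2.06 in thawed cells (SE 0.27, adjusted p = 1.57e-09). DMSO at day 32 was followed by a rise in thawed cells (log2 1.75, SE 0.28, 3.37-fold, adjusted p = 6.87e-07). In fresh cells the value was 0.73 (SE 0.27, adjusted p = 0.137), and the difference between the kinds of cell was 1.02 (SE 0.39, adjusted p = 0.763). In that comparison of effects edgeR and DESeq2 called no member, and edgeR called 0.12% of all genes. There 3 members had an unadjusted p under 0.05, and the share of all genes at that unadjusted threshold was not computed.

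LAMB3, which pairs with LAMA3 in that laminin, had low counts. It was 0 to 5.59 CPM at progenitor day 14, 3.06 to 8.19 CPM at fresh day 30 and 0 to 3.80 CPM at thawed day 30. It rose into fresh day 30 (log2 1.80, SE 0.61, adjusted p = 0.0199, edgeR), and at day 30 it was lower in thawed than in fresh cells (log2 -2.12, SE 0.60, adjusted p = 0.0076). Both calls were lost without fresh parental day 30 replicate a (adjusted p 0.167 and 0.117). In thawed cells it then rose to day 32 without DMSO, from a mean of 1.10 to 4.64 CPM (adjusted p = 0.0109). LAMC1 and LAMB1, chains found in most laminins, had more counts. LAMC1 was 21.8 to 37.2 CPM at progenitor day 14 and 46.4 to 74.9 CPM at fresh day 30, without overlap, and rose by 1.01 (SE 0.20, adjusted p = 2.95e-05). LAMB1 was 20.1 to 45.5 CPM at day 0, 7.77 to 20.6 CPM at day 2 and 23.8 to 39.4 CPM at day 14. It fell by 1.23 (SE 0.23, adjusted p = 4.2e-06) and then rose by 1.33 (SE 0.23, adjusted p = 5.38e-07). LAMA5, the alpha chain of many adult basement membranes, fell to day 2 from a mean of 10.3 to 4.69 CPM (adjusted p = 0.0402), a call lost when any replicate letter was removed throughout (adjusted p 0.0659 for a, 0.423 for b and 0.0604 for c).

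COL18A1, the basement membrane collagen from which endostatin is cut, was higher in fresh day 30 cells than in progenitors of day 14. It was 10.8 to 24.1 CPM at progenitor day 0, 3.16 to 5.68 CPM at day 2, 7.00 to 27.7 CPM at day 14 and 18.4 to 46.8 CPM at fresh day 30. It fell to day 2 (log2 -1.74, SE 0.31, adjusted p = 2.13e-06, edgeR), rose to day 14 (log2 1.79, SE 0.31, adjusted p = 7.11e-07) and rose into fresh day 30 (log2 0.91, SE 0.25, adjusted p = 0.00352, and log2 0.51 with adjusted p = 0.218 without fresh parental day 30 replicate a). With DMSO it rose between day 32 and day 44, from 5.59 to 22.6 CPM to 26.9 to 37.4 CPM in fresh cells (log2 1.28, SE 0.24, adjusted p = 2.09e-05) and from 8.62 to 17.5 CPM to 15.1 to 33.7 CPM in thawed cells (log2 0.89, SE 0.23, adjusted p = 0.00414). The fresh sets did not overlap and the thawed sets did. COL4A1 and COL4A2, the main type IV collagen chains, share the promoter stretch printed above. COL4A1 rose to progenitor day 2, from 2.87 to 9.13 CPM at day 0 to 7.91 to 19.1 CPM (log2 1.26, SE 0.37, adjusted p = 0.00502), where COL4A2 had a log2 change of 0.56 (SE 0.39, adjusted p = 0.297). Both fell to day 14, COL4A1 by 1.07 (SE 0.37, adjusted p = 0.0151) and COL4A2 by 1.48 (SE 0.41, adjusted p = 0.00235).

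Fibrillar collagens had few counts in these cells. COL1A1, the main chain of type I collagen, was 1.06 to 12.9 CPM at progenitor day 0, 4.24 to 11.4 CPM at day 2 and 0 to 3.16 CPM at day 14, and its partner chain COL1A2 had 18 counts in all libraries together. COL1A1 fell from day 2 to day 14 (log2 -2.12, SE 0.60, adjusted p = 0.00249, edgeR) and from day 32 to day 44 with DMSO in fresh cells, from 2.46 to 6.43 CPM to 0 to 1.73 CPM (log2 -2.03, SE 0.70, adjusted p = 0.0419). The call to fresh day 44 was lost when any replicate letter was removed throughout (adjusted p 0.0925 for a, 0.129 for b and 0.191 for c). In thawed cells with DMSO, COL1A1 had means of 0.90 and 2.73 CPM at day 32 and day 44 (adjusted p = 0.08). COL3A1, the type III chain, was 7.19 to 13.7 CPM at progenitor day 0, 0.71 to 5.68 CPM at day 2 and 3.57 to 11.6 CPM at day 14, and at most 1.86 CPM at fresh day 30. It fell to day 2 (log2 -2.74, SE 0.55, adjusted p = 2.76e-05), rose to day 14 (log2 1.87, SE 0.59, adjusted p = 0.00735) and fell into fresh day 30 (log2 -2.08, SE 0.59, adjusted p = 0.00468). COL5A1, a chain that starts fibril assembly, fell from 13.8 to 27.0 CPM at day 2 to 4.15 to 7.00 CPM at day 14 (log2 -1.66, SE 0.34, adjusted p = 1.94e-05). COL5A2 had 130 counts in all and was not tested.

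Among the other collagens, COL6A1 (type VI collagen) fell to progenitor day 2, from a mean of 6.26 to 1.73 CPM (log2 -1.68, SE 0.52, adjusted p = 0.00737, edgeR), and rose to 5.12 CPM at day 14 (log2 1.51, SE 0.52, adjusted p = 0.0145). The COL6A1 rise was no longer called with any replicate letter removed throughout, at log2 1.52 without a, 1.82 without b and 1.39 without c. Its fall was no longer called without b (log2 -1.79) or c (log2 -1.40). The partner chains COL6A2 and COL6A3 had 52 and 305 counts in all and were not tested. COL12A1, which decorates fibril surfaces, fell in thawed cells from day 30 to day 32 without DMSO, from 1.45 to 11.3 CPM to 0.83 to 3.71 CPM (log2 -1.34, SE 0.42, adjusted p = 0.0201), and rose from day 32 to day 44 with DMSO (log2 1.16, SE 0.39, adjusted p = 0.0432). Both calls were lost when any replicate letter was removed throughout. Without a, b and c the adjusted p was 0.0998, 0.0622 and 0.205 for the fall and 0.0684, 0.389 and 0.124 for the rise. COL7A1, the anchoring fibril collagen, had condition medians of 1.17 to 5.79 CPM and was called in none of the 14 comparisons. The cross-linking enzymes LOX and LOXL2, which join collagen chains, had 73 and 100 counts over all libraries, too few to test.

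MMP7 (matrilysin), a small epithelial protease, was the one protease with many counts. It ran from 187 to 474 CPM at progenitor day 0 (median 442), from 52.2 to 81.9 CPM at day 2 (median 62.9), from 84.1 to 145 CPM at day 4, from 135 to 197 CPM at day 7 and from 149 to 225 CPM at day 14 (median 205). At fresh day 30 it was 64.7 to 97.8 CPM. Day 2 lay below both day 0 and day 14 in all libraries, and fresh day 30 lay below day 14. MMP7 fell to day 2 by 2.54 on the log2 scale (SE 0.14, 5.80-fold, adjusted p = 3e-31, edgeR), rose by 1.57 to day 14 (SE 0.14, adjusted p = 1.34e-17) and fell by 1.15 into fresh day 30 (SE 0.14, adjusted p = 7.43e-11). With DMSO it was 35.6 to 55.8 CPM in fresh and 37.2 to 52.5 CPM in thawed cells at day 37, below the libraries of day 32 in both kinds of cell. From day 32 to day 44 with DMSO it fell in fresh cells (log2 -0.50, SE 0.13, adjusted p = 0.00397). MMP2, a gelatinase made by many mesenchymal cells, had condition medians of 0.58 to 5.17 CPM, with the highest at progenitor day 0, and was called in none of the comparisons (log2 -1.34, SE 0.55, adjusted p = 0.0552 from day 0 to day 2). MMP14, which activates MMP2 at the cell surface, had 141 counts in all and was not tested.

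Of the inhibitors, TIMP1 was low at progenitor day 2 and high in differentiated cells. It ran from 1401 to 2367 CPM at progenitor day 0 (median 1953), from 954 to 1264 CPM at day 2 (median 1072), from 2381 to 3070 CPM at day 14 (median 2774) and from 3937 to 4451 CPM at fresh day 30 (median 4091). No neighbouring pair of these 4 sets overlapped. TIMP1 fell to day 2 (log2 -0.75, SE 0.08, adjusted p = 5.33e-13, edgeR), rose to day 14 (log2 1.29, SE 0.09, adjusted p = 1.63e-25) and rose into fresh day 30 (log2 0.61, SE 0.09, adjusted p = 9.93e-09). After day 30 its condition medians lay between 3327 and 4142 CPM and no further change with time or DMSO was called. TIMP3, the inhibitor that binds to matrix, was 0.79 to 5.35 CPM at progenitor day 14 and 6.06 to 9.29 CPM at fresh day 30, without overlap, and rose by 1.67 (SE 0.50, adjusted p = 0.00875). Its call from day 2 to day 14 (log2 1.71, adjusted p = 0.048) was lost without parental progenitor day 14 replicate a (log2 0.74, adjusted p = 0.598). TIMP2, which also takes part in MMP2 activation, fell from fresh day 30 to day 32 without DMSO, from 45.2 to 69.0 CPM to 25.1 to 38.8 CPM without overlap (log2 -0.87, SE 0.16, adjusted p = 9.09e-06).

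Thawed and fresh cells at day 30 were compared as cells of the same labelled day. The sample labels do not say whether both came from the same differentiation run. Thawing and a difference between runs therefore cannot be told apart. The 10 members that were lower in thawed cells came from 4 roles: 4 of the 8 basement membrane genes (LAMB3, LAMC1, LAMB1 and LAMA3), 4 of the 6 tested glycoproteins (FBN1, FN1, POSTN and THBS1), COL12A1 and TIMP2. FN1 was 432 to 631 CPM in fresh and 202 to 313 CPM in thawed cells (log2 -1.03, SE 0.12, 2.04-fold lower, adjusted p = 1.65e-09, edgeR). LAMC1 was 46.4 to 74.9 CPM and 22.5 to 37.04 CPM (log2 -0.90, SE 0.19, adjusted p = 0.000212), and LAMB1 36.04 to 63.2 CPM and 20.2 to 27.6 CPM (log2 -0.87, SE 0.20, adjusted p = 0.000838). For these 3 genes, and for LAMA3 and POSTN, fresh and thawed libraries did not overlap, whereas for the other 5 they did. The 10 were called on these same libraries, and the share of all genes without overlap was not computed. The median log2 difference of the 27 members was -0.59, beside -0.06 for all genes tested. Calls of COL12A1 (adjusted p = 0.0436) and POSTN (adjusted p = 0.0498) were lost without parental progenitor day 14 replicate a, at log2 -0.93 and -0.91. That library is in neither of the sets compared here and enters only through the shared fit. Of the marker lists, 2 of 8 hepatocyte markers were lower in thawed cells at day 30, against 6.02% of all genes. None of 4 tested biliary and 4 tested stellate and fibroblast markers was called (none at an unadjusted p under 0.05). Without fresh parental day 30 replicate a, the shallow library named above, 6 members were called, 5 of them among these 10, and LAMA3, LAMB3, COL12A1, POSTN and TIMP2 were not (adjusted p 0.0871, 0.117, 0.0987, 0.361 and 0.139). The calls of LAMA3, FBN1 and THBS1 were lost with any replicate letter removed throughout. Without c their adjusted p was 0.0815, 0.0591 and 0.0754 (edgeR), and LAMB3 (0.0619) and POSTN (0.123) were lost too. Removing a or b leaves 1 library in fresh parental day 30. Without a, the calls of LAMB1, LAMB3, LAMC1, COL12A1, POSTN and TIMP2 were also lost (log2 -0.74, -1.56, -0.69, -1.02, -0.51 and -0.42). The FN1 call was not lost. Over days 32 to 44 THBS1 alone was called lower in thawed cells (log2 -0.47, SE 0.13, adjusted p = 0.0232), where 3.01% of all genes were lower (4.58% called in either direction). From day 30 to day 32 without DMSO, FN1 fell in fresh cells (log2 -0.33, SE 0.12, adjusted p = 0.0432) and had a log2 change of 0.33 in thawed cells (SE 0.12, adjusted p = 0.0509), a difference of 0.66 (SE 0.17, adjusted p = 0.0202). Without fresh parental day 30 replicate a, the fall in fresh cells was 0.25 (adjusted p = 0.241) and the difference 0.57 (adjusted p = 0.0952).

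Between the genotypes few members differed. In progenitors SPARC and MMP7 were higher and TIMP2 lower in transduced cells, 3 members where 1.57% of all genes were called (1.26% higher and 0.311% lower). In fresh cells TIMP2 alone was called, lower in transduced cells, where 3.77% of all genes were called (1.88% higher and 1.9% lower). In thawed cells TIMP2 alone was again called lower, where 2.64% of all genes were called (1.09% higher and 1.55% lower). TIMP2 had a higher mean in parental cells in 15 of 15 conditions, and in 7 of them the libraries of the 2 genotypes did not overlap. At fresh day 44 with DMSO, for example, it was 54.7, 57.4 and 58.3 CPM in parental and 34.8, 43.0 and 43.2 CPM in transduced cells. The log2 difference was -0.36 in progenitors (SE 0.10, adjusted p = 0.0242, edgeR), -0.38 in fresh cells (SE 0.10, adjusted p = 0.00828) and -0.40 in thawed cells (SE 0.10, adjusted p = 0.00443). SPARC had a higher mean in transduced cells in 14 of 15 conditions. At progenitor day 7 it was 30.9, 32.3 and 33.7 CPM in transduced and 9.91, 16.3 and 18.7 CPM in parental cells, without overlap. Its log2 difference was 0.75 in progenitors (SE 0.11, 1.68-fold, adjusted p = 1.23e-06) and 0.35 in fresh cells (SE 0.13, adjusted p = 0.114), and the difference between these effects was -0.40 (SE 0.17, adjusted p = 0.371). Direction and overlap by condition were read for TIMP2, SPARC and MMP7 alone, which were called on these same libraries. The share over all genes was not computed.

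MMP7 was higher in transduced progenitors by 0.33 on the log2 scale (SE 0.08, adjusted p = 0.0151, edgeR), with a higher mean on 5 of 5 progenitor days, and it was higher in parental cells in 3 of 5 fresh and 4 of 5 thawed conditions. At progenitor day 14 it was 205, 211 and 225 CPM in transduced cells and 149 and 194 CPM in the 2 parental libraries. The change of the genotype effect from progenitors to fresh cells was -0.37 for MMP7 (SE 0.12, adjusted p = 0.113). No member was called in that comparison by edgeR or DESeq2, where 1.47% of all genes were called by edgeR. There 8 members had an unadjusted p under 0.05, and the share of all genes at that unadjusted threshold was not computed. In progenitors the calls of MMP7 and TIMP2 were lost without parental progenitor day 14 replicate a, at log2 0.30 (adjusted p = 0.0776) and -0.33 (adjusted p = 0.0921), and SPARC was called alone. The progenitor call of TIMP2 was also lost with any replicate letter removed throughout, at log2 -0.34 without a, -0.43 without b and -0.32 without c. That of MMP7 was lost without a (log2 0.27) or b (log2 0.33). Both were lost with only the compared groups in the fit (adjusted p 0.182 for TIMP2 and 0.191 for MMP7, edgeR). In fresh cells the TIMP2 call was lost without a (log2 -0.36) or b (log2 -0.38). In thawed cells it was lost without a (adjusted p = 0.0925) or c (adjusted p = 0.0707). Beside these values, 7 of 8 hepatocyte markers were lower in transduced fresh cells (1.9% of all genes) and 6 of 8 in transduced thawed cells (1.55%). In transduced progenitors 3 of 8 hepatocyte markers and 1 of 4 tested stellate and fibroblast markers were higher (1.26% of all genes). Their part in the matrix results was not tested. The transduced and parental cells each stand for 1 line, so the transgene and other differences between the lines cannot be told apart.

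**Figure D4:**
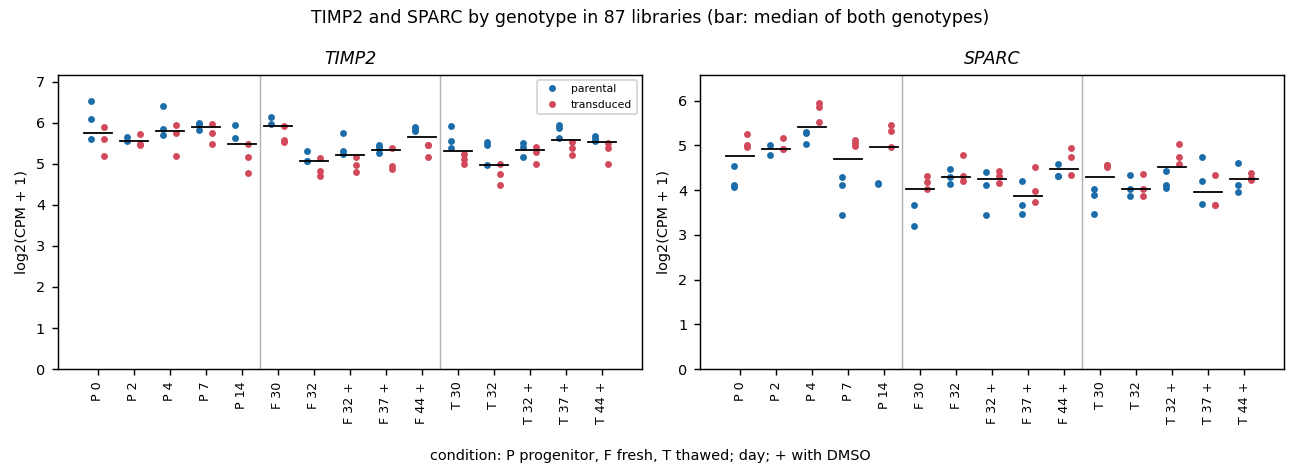
Level of TIMP2 and SPARC, as log2(CPM + 1), in each library of parental and transduced cells (points, coloured by genotype) over the 15 conditions, with a bar at the median of both genotypes. TIMP2 has the higher mean in parental cells in 15 of 15 conditions, and SPARC in transduced cells in 14 of 15. Both genes are shown because they were called on these same libraries.

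Genes that act with the 36 members were read from lists of collagen processing, further basement membrane genes, matrix receptors, further proteases and inhibitors, and the TGF-beta pathway. Of 11 tested collagen processing genes, 3 rose and 3 fell to progenitor day 2, where 13.8% of all genes rose and 16.6% fell. PCOLCE, the enhancer that helps cut the collagen propeptide, fell and rose at the same steps as DCN. It fell from a mean of 126 to 35.3 CPM at day 2 (log2 -1.84, SE 0.17, adjusted p = 6.77e-18, edgeR), stood at 97.3 CPM at day 14 and fell to 16.5 CPM at fresh day 30 (log2 -2.46, SE 0.19, adjusted p = 7.73e-21). It then rose to day 32 without DMSO in fresh cells (log2 0.59, SE 0.19, adjusted p = 0.0178) and by more in thawed cells (log2 1.59, SE 0.17, adjusted p = 6.39e-13), a difference of 1.00 (SE 0.26, adjusted p = 0.0211). Into fresh day 30, 5 of the 11 rose, against 10.7% of all genes, among them the lysyl hydroxylases PLOD1 (log2 1.21, SE 0.16, adjusted p = 1.37e-09) and PLOD2 (log2 1.59, SE 0.27, adjusted p = 1.59e-06). Of 10 tested further basement membrane genes, 3 fell to day 2 (16.6% of all genes) and none rose (13.8%), with LAMB2 from 43.98 to 15.7 CPM (log2 -1.43, SE 0.21, adjusted p = 5.17e-09). In thawed cells LAMB2 rose with DMSO at day 32 (log2 0.71, SE 0.18, adjusted p = 0.0036), as LAMA3 did.

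Of 14 tested matrix receptors, 2 rose and 2 fell to progenitor day 2, near the shares of all genes (13.8% and 16.6%). ITGB1, the beta chain of most matrix-binding integrins, rose from a mean of 132 to 217 CPM (log2 0.71, SE 0.12, adjusted p = 2.05e-07, edgeR), fell to 101 CPM at day 14 (log2 -1.11, SE 0.12, adjusted p = 1.56e-13) and rose to 173 CPM at fresh day 30 (log2 0.78, SE 0.12, adjusted p = 2.04e-07). From day 2 to day 14 the receptors CD44 (log2 -1.09, SE 0.16, adjusted p = 4.37e-09) and ITGA5 (log2 -1.07, SE 0.18, adjusted p = 4.52e-07) fell as well. At day 30, 10 of the 14 were lower in thawed than in fresh cells and none was higher (6.02% and 9.54% of all genes), with ITGB1 at 102 against 173 CPM (log2 -0.74, SE 0.12, adjusted p = 8.43e-07) and ITGA5, the fibronectin receptor chain, at 26.6 against 55.0 CPM (log2 -1.04, SE 0.19, adjusted p = 8.85e-06). In the same comparison 2 of 11 collagen processing, 3 of 10 further basement membrane, 4 of 12 further protease and inhibitor and 3 of 14 TGF-beta genes were lower, against 6.02% of all genes, and none was higher.

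Of 12 tested further proteases and inhibitors, 3 rose and 3 fell to progenitor day 2 (13.8% and 16.6% of all genes), and 2 rose and 4 fell from day 2 to day 14 (19.5% and 16.7%). Of 14 tested TGF-beta genes, 1 rose and 4 fell to day 2, against 13.8% and 16.6% of all genes. TGFBI, an adhesion protein induced by TGF-beta, rose (log2 1.02, SE 0.16, adjusted p = 4.54e-08) and CCN2, a matrix-inducing growth factor, fell from 158 to 39.8 CPM (log2 -2.02, SE 0.25, adjusted p = 8.42e-10). CCN2 fell again from day 30 to day 32 without DMSO, from 147 to 25.0 CPM in fresh cells (log2 -2.57, SE 0.24, adjusted p = 8.71e-13) and from 94.3 to 9.18 CPM in thawed cells (log2 -3.37, SE 0.27, adjusted p = 7.46e-16). Beside the day 2 values stand the marker sums given above, with low hepatocyte, endothelial and leukocyte sums and high biliary and stellate and fibroblast sums at that day. The high sums were not shared by all genes of those lists. Of 4 tested biliary markers, 1 rose and 2 fell to day 2 (13.8% and 16.6% of all genes). Of 4 tested stellate and fibroblast markers, 1 rose and none fell. The part of the marker genes in the matrix results was not tested.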

How the data were processed

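The authors deposited 1 table of read counts per gene, not normalized, with a column for each of the 90 libraries. Per the submitters' processing notes, BWA 0.7.4.4 was used and the builds hg38 and mm10 are named without a role. Whether molecular identifiers were collapsed, and whether strand was used in counting, is not given in the sources used here. Of the 90 libraries, 3 with a total under 0.25 times the median were left out.

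Counts were fitted with edgeR 4.0.16 (R 4.3.3) as 30 group means, with TMM scaling, the filterByExpr filter and the robust quasi-likelihood test. Time, DMSO and thawing effects average the 2 genotypes, a mean CPM in such a comparison is the mean of the 2 genotype means, and an SE is the log2 change divided by the square root of F. DESeq2 1.42.0 was an alternative. The procedure was tested on simulated data. Levels are CPM over TMM-scaled totals, and 3′ counts are not compared between genes. Depth limits members under about 5 CPM, at which a library of median size holds few reads.

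The members and gene lists were chosen with earlier results of these data known. The rule for naming was up to 6 rises and 6 falls per comparison with a mean of at least 5 CPM in either set, and up to 3 genes per further list. Some calls within it have no sentence above. They include the rises of FN1 and LAMB1 from day 32 to day 44 with DMSO in thawed cells. The falls of THBS1 and MMP7 with DMSO at day 32 in thawed cells are among them too. Members outside that rule were named to account for each role and were chosen after their values were seen. The values of 1 gene of the further lists are not reported here.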

Additional observations from a re-analysis of the deposited data

Results flagged for a closer look

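In 2 members the change from day 30 to day 32 without DMSO differed between thawed and fresh cells by edgeR's test of the difference itself. For DCN (decorin) the rise was larger in thawed cells by 1.14 on the log2 scale (SE 0.27, adjusted p = 0.0122). For FN1 (fibronectin) thawed cells had a value 0.66 above that of fresh cells (SE 0.17, adjusted p = 0.0202). Fresh parental day 30 is represented by 2 libraries here, and without its shallow replicate a the differences were 1.37 for DCN (adjusted p = 0.0023) and 0.57 for FN1 (adjusted p = 0.0952). With replicate b removed throughout they were 0.07 for DCN and 0.45 for FN1, and with replicate a removed 1.69 and 0.65. In these 2 fits fresh parental day 30 holds 1 library. With replicate c removed throughout they were 1.01 for DCN (adjusted p = 0.111) and 0.83 for FN1 (adjusted p = 0.00929).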

How the results depend on the processing

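Of the 95 calls among the members (the 3 differences of effects included), none changed direction under any alternative run, and 39 stayed past the threshold in all 3 fits that left out 1 replicate letter of every group. Leaving out a replicate letter gave 4 to 9 called members for fresh day 32 against day 30, 3 to 4 for thawed day 32 against day 30, 2 to 3 for DMSO in thawed cells, 1 to 5 and 2 to 5 for day 44 against day 32 in fresh and thawed cells, 2 to 5 for thawed against fresh at day 30, 0 to 0 for that comparison at days 32 to 44, 1 to 2 for genotype in progenitors, 0 to 1 in fresh and 0 to 1 in thawed cells, and 0 to 1 for the day 32 change in thawed minus fresh cells. These fits hold fewer samples, and where an arm then has 1 library, it is assumed to vary like the other groups. DMSO in fresh cells gave 1 call by DESeq2, 1 without parental progenitor day 14 replicate a and 1 without fresh parental day 30 replicate a. DMSO in thawed cells gave 2 with no filter on low counts and 2 with all 90 libraries. Leaving out fresh parental day 30 replicate a, an alternative chosen after seeing the data, gave 5 calls for fresh day 32 against day 30, 6 for thawed against fresh at day 30, 2 for genotype in thawed cells and 1 for the day 32 change in thawed minus fresh cells. In fresh cells at day 32 that ended the calls of COL18A1 (adjusted p = 0.111, edgeR), SPARC (0.143) and TIMP3 (0.0989), and into fresh day 30 that of FBLN1 (0.0872). With only the compared groups in the fit, 3 members were called for thawed against fresh at days 32 to 44 (2 by DESeq2), 1 for genotype in progenitors and 2 each in fresh and thawed cells. Genotype in progenitors gave 1 without parental progenitor day 14 replicate a, and genotype in thawed cells gave 2 there, 2 with RLE scaling and 2 by DESeq2. The causes of these shifts were not tested.

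Replicate letters do not pair the samples: the median correlation of deviations was -0.000687 for the same letter and -0.000951 for other letters. With a replicate block, the called members were 15, 16 and 14 along the course to fresh day 30, 8 and 5 for day 32 against day 30 in fresh and thawed cells, 0 and 3 for DMSO, 6 and 7 for day 44, 10 and 1 for thawed against fresh, 3, 1 and 1 for genotype, and 2, 0 and 0 for the differences of effects. It ended 3 of the 95 calls. Members with few reads are the ones depth limits, and 9 could not be tested at all.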
